A study of Saccharomyces cerevisiae with 24 samples.

Results

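The genes described here are the 230 genes of Saccharomyces cerevisiae, of 6571 counted, whose reads in wild-type cells came mostly from the strand opposite the gene. They were chosen on measured values, the raw counts summed over the 6 wild-type libraries. A gene was kept when it had at least 120 antisense counts, more antisense than sense counts, and a sharing of reads with a gene on the other strand of at most 10% of its antisense counts. Sharing is the amount by which the sense and antisense counts together exceed the count that ignores strand. Of the 1581 genes with at least 120 antisense counts, 739 had more antisense than sense counts before the limit on sharing, and 230 after it. They are called antisense-led genes below.

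The study asked how Rad6, its partner Rtf1 and the ubiquitylated lysine of histone H2B bear on the yeast transcriptome. RNA was sequenced with strand kept in 24 libraries from log-phase cultures in YPD, a rich glucose medium, as 8 groups of 3 biological replicates. All strains were MATa his3Δ200 lys2-128Δ ura3-52 trp1Δ63, that is haploid cells of mating type a with 4 auxotrophic mutations. Cells of another yeast, Kluyveromyces lactis, were mixed in for scaling, and rRNA was removed from the extracted RNA. The WT untagged group carried no tag, and the WT tagged group carried HA-tagged Rtf1 and Myc-tagged Rad6, the latter marked with KanMX. The rad6Δ untagged group had RAD6 replaced by KanMX, and the rad6Δ tagged group added HA-tagged Rtf1, so it had 1 tag where WT tagged had 2. The H2B-K123R group was untagged and had the substitution in both H2B genes. The rad6-R6Q, rad6-R6A,M10A and rtf1-108-110AAA groups carried both tags of WT tagged, with substitutions in Rad6 or in Rtf1. The wild type of matching tag status served as the control of each mutant.

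In yeast, Rad6 works with the ligase Bre1 to attach ubiquitin to a lysine of H2B in transcribed genes, and Rtf1, a subunit of the Paf1 complex that travels with RNA polymerase II, stimulates that step. The mark is known for its role in keeping nucleosomes in order behind the polymerase, and chromatin that is not restored allows transcription to start on either strand. Antisense transcripts in yeast often start in the nucleosome-poor region at the 3′ end of a gene or in a neighbouring promoter. For a few genes the antisense transcript is known to repress the sense one, as RME2 does to IME4 in haploid cells and as a long antisense RNA does at GAL10.

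Sequences are shown for genes on which later results turn. They are from RefSeq's R64 genome, 5′ to 3′ on the strand named with each. The first is the promoter of OPT2, the gene with shifts on both strands in every mutant and further shifts past the RAD6 deletion, from 250 bases before to 50 bases after its start (chrXVI:926888-927187, minus strand). Capitals mark TATAAA, its complement TTTATA where the pair overlap, and GGCGGC.
OPT2: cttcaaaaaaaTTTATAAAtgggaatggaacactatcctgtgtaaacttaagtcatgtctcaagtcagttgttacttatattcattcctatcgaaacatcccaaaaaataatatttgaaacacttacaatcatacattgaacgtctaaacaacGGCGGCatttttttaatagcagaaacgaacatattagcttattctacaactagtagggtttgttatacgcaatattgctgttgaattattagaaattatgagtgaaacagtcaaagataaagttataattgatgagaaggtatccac

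Next are the 6 meiotic genes among the 230 whose promoter window holds GGCGGC, the core of the site of Ume6, a repressor of early meiotic genes in mitotic cells. Capitals mark the core or its complement GCCGCC. The windows lie at chrVII:141999-142034 (IME4, plus strand), chrVIII:131937-131972 (SPO13, plus), chrIX:226416-226451 (HOP1, plus), chrIX:226058-226093 (SPO22, minus), chrXIII:536100-536135 (REC114, plus) and chrXIV:250806-250841 (MER1, plus). HOP1 and SPO22 are neighbours that run apart from one another.
IME4: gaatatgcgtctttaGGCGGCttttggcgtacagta
SPO13: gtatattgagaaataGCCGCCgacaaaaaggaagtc
HOP1: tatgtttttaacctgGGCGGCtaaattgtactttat
SPO22: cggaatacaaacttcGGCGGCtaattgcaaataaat
REC114: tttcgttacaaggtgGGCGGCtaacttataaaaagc
MER1: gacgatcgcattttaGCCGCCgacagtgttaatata

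The core stood 86 to 226 bases before the start codon in these genes. Searched on both strands of the same promoter window, GGCGGC was found in 6 of the 18 meiotic genes among the 230, in 19 of the 225 antisense-led genes with an R64 entry (8.4%) and in 308 of 5896 genes (5.2%). TATAAA was found in 50.7% of the antisense-led genes and 44.4% of all, and the stress element CCCCT in 26.2% and 22.0%. These are matches of letters, not sites of binding.

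The last pair of sequences lies beyond the 3′ ends of IME4 (chrVII:144204-144223, plus strand) and ZIP2 (chrVII:35308-35327, minus strand, the strand of the antisense RNA). Both genes lie under an annotated antisense RNA, RME2 and RME3, which the a1-α2 repressor of diploid cells is known to shut off in the case of RME2. The string searched, TCATGTNNNNNNNTACATCA, is a form of the a1-α2 site, and capitals mark letters that match it. Counted from 1 at the 5′ end of the string, with the string's base first, IME4 differs by T1C and A3G, and ZIP2 by C19T and A20T.
IME4: cCgTGTattttttTACATCA
ZIP2: TCATGTtaataaaTACATtt

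The strings stand 156 bases past the IME4 reading frame and 83 from the 5′ end of RME2, and 96 bases past the ZIP2 reading frame and 294 from the 5′ end of RME3. With up to 2 mismatches the string occurred in 84 of 5891 windows of 300 bases beyond a reading frame (1.43%), and in 4 of 225 for the antisense-led genes, which are those of IME4, ZIP2, CAP2 and VIK1.

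In wild type, the 230 genes held 232491 antisense counts and 40240 sense counts over the 6 libraries. The median gene had 386.5 antisense and 66.5 sense counts, and 82.7% of its counts were antisense. These values chose the genes and are given as a description. In 76 genes the antisense counts were at least 10 times the sense counts, in 61 they were less than 2 times, and 8 genes had 0 sense counts in all 6 libraries. In 168 genes no reads were shared with a gene on the other strand.

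**Figure D1:**
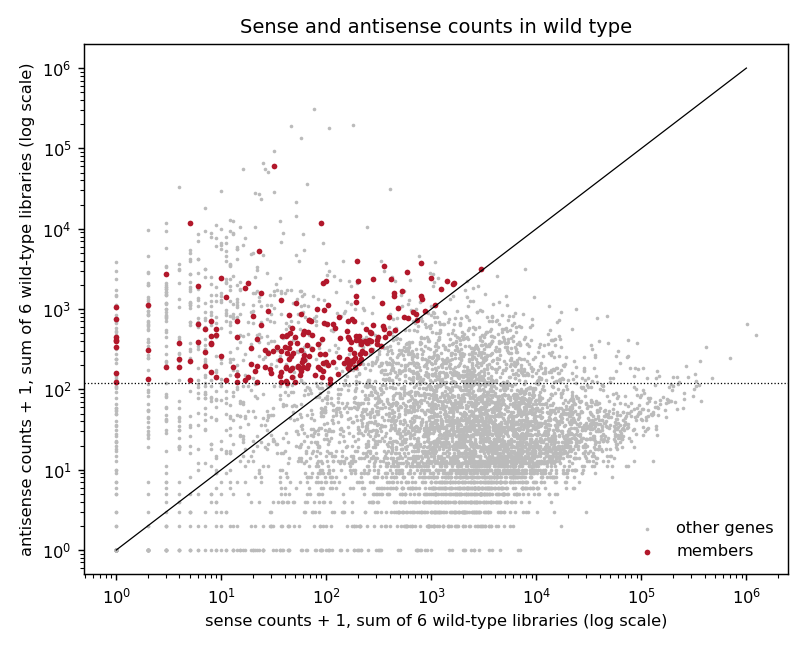
Sense against antisense counts of each gene, summed over the 6 wild-type libraries, each plus 1, on log axes. The solid line marks equal counts, the dotted line the minimum of 120 antisense counts, and the 230 antisense-led genes are in red above both, with median counts of 386.5 antisense and 66.5 sense.

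The 6 genes with the most wild-type antisense counts were YLR264C-A (61013 antisense, 31 sense), RRT15 (11922 and 4), HPF1 (11896 and 88), CSS1 (5325 and 22), YPS3 (3925 and 194) and ICL1 (3698 and 790). HPF1 encodes a mannoprotein of the cell wall, YPS3 an aspartic protease of the cell surface, and ICL1 isocitrate lyase of the glyoxylate cycle. YLR264C-A is a reading frame of 117 bases (chrXII:673828-673944, minus strand). RRT15 and YLR162W match the minus strand of the ribosomal RNA gene RDN25-1, with 97.9% identity over 140 of 189 bases and 96.6% over 176 of 357. RRT15's antisense level ran from 26.9 to 641 CPM (counts scaled to library size, as defined below) between libraries and that of YLR162W from 30.6 to 99.8, with no call for either in any mutant. A near-identical copy elsewhere in the genome was found for 20 of the 230 genes, among them FLO1, FLO9, MAL12, MAL32, HXT9, HXT11, HXT17, LYS20, MST27 and PAU2, and their counts are uncertain.

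Just inside the minimum were SAG1 (120 antisense and 107 sense counts), MSA2 (120 and 41), CWC23 (122 and 21) and YJL043W (3 above the minimum, with 36 sense counts). Just outside it were YLR294C (119 and 89), YDR157W (118 and 6), YLR334C (117 and 20) and YLR031W (112 and 100). At the other edge of the rule, BMT2 (189 and 187), SIZ1 (740 and 730) and DIT1 (210 and 203) were inside, and SPO1 (337 and 343), IML3 (779 and 804) and MLG1 (209 and 217) outside.

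Along the genome, 79 of the 225 genes with an R64 entry had the next gene beyond their 3′ end on the opposite strand (35.1%), against 51.9% of all genes and 29.5% of 451 sense-led genes with as many antisense counts and as little sharing. Where there was such a neighbour, the median gap was 315 bases, against 220 for all genes and 302 for the sense-led ones. The limit on sharing drops genes whose reads are shared with a gene on the other strand. Fewer and more distant opposite-strand neighbours than in all genes can therefore follow from the choice. Within 30 kb of a chromosome end lay 31 antisense-led genes (13.8%), against 6.5% of all genes and 4.4% of the sense-led ones. Their median reading frame was 1110 bases, against 1188 for all genes.

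R64 annotates 7 antisense RNAs opposite counted genes, and 6 of them lie opposite an antisense-led gene. They are RME2 opposite IME4 (309 antisense and 25 sense counts in wild type), RME3 opposite ZIP2 (798 and 131), SUT169 opposite SPS100 (457 and 7), YNCB0008W opposite GAL10 (249 and 132), YNCM0001W opposite YML122C (131 and 16) and YNCP0002W opposite GAL4 (2349 and 277). YNCM0001W also covers PHO84, the phosphate transporter, which was sense-led with 876 antisense and 7516 sense counts. The remaining one, TBRT, covers TAT1, an amino acid transporter that had 823 antisense and 47130 sense counts.

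Each library held 7227245 to 10782960 sense counts and 411344 to 611282 antisense counts, of which the antisense-led genes held 5.84% to 8.26%. RAD6 had 0 or 1 sense counts in each of the 6 rad6Δ libraries. Its sense level was 50.6 to 62.2 CPM in WT untagged, 45.7 to 56.8 for WT tagged and 67.5 to 70.4 for H2B-K123R. It was 68.8 to 132.4 CPM in rtf1-108-110AAA, 111.6 to 146.4 for rad6-R6Q and 142.1 to 162 for rad6-R6A,M10A. RTF1 sense was 55.7 to 68.2 CPM in WT untagged and 107.7 to 122.8 for WT tagged. It was 134.6 to 200.7 CPM in the tagged mutants and 50.3 to 92.7 in the untagged ones. Whether these levels bear on the other differences was not tested. All 230 genes were tested on the antisense strand. On the sense strand 177 were tested, 124 of which pass the filter on low counts in the wild-type libraries alone, and 53 were too low to test. CPM on either strand is scaled to the library's TMM-adjusted sense total. Calls rest on an adjusted p under 0.05 over all genes tested.

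Away from wild type, antisense reads took a smaller share of these genes. The median antisense share of their counts was 81.1% to 85.4% in the 6 wild-type libraries and 73.9% to 80.7% in the 18 mutant libraries, with no overlap. The genes with more antisense than sense counts numbered 207 to 225 in a wild-type library and 181 to 198 in a mutant one. The wild-type libraries are those the rule used, so a drop of this kind is built into the choice and is not a test. In these bulk samples, fewer cells with a transcript and less transcript per cell cannot be told apart.

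On the antisense strand, rad6Δ tagged had 23 of the 230 genes higher and 87 lower than WT tagged, against 15.3% higher and 12.9% lower of all 3741 genes tested. The rtf1-108-110AAA group had 10 higher and 85 lower (background 11% and 9.46%, or 20.4% either way), rad6-R6Q 14 and 82 (9.94% and 11.5%), and rad6-R6A,M10A 11 and 74 (10.5% and 8.26%). Against WT untagged, rad6Δ untagged had 46 higher and 43 lower (22.7% and 6.76%), and H2B-K123R 53 and 33 (28.8% and 4.17%). As shares of the 230, the genes lower were 37.8%, 37%, 35.7% and 32.2% in the 4 tagged mutants and 18.7% and 14.3% in the untagged ones, each above the background given. All 230 had at least 120 wild-type antisense counts, against 1581 of the 6571 genes counted. The background of 3741 genes thus holds many with fewer counts, where a call is harder to reach. A background matched on counts was not computed, here or for later antisense comparisons. Without WT untagged replicate 1 the 33 lower in H2B-K123R became 19. Without WT tagged replicate 3 the 14 higher in rad6-R6Q became 9. The 11 higher in rad6-R6A,M10A became 5 without WT tagged replicate 3 or mutant replicate 3, and 7 without replicate 2 of either group.

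Because the wild-type libraries chose the genes, the same rule was applied to the wild type that each comparison did not use, with 60 antisense counts as the minimum. This gave 210 genes on WT untagged and 244 on WT tagged, of which 205 and 220 were among the 230. The counts were 22 higher and 80 lower in rad6Δ tagged, 10 and 77 for rtf1-108-110AAA, 14 and 76 for rad6-R6Q, 11 and 68 for rad6-R6A,M10A, 51 and 42 for rad6Δ untagged, and 61 and 30 for H2B-K123R. The median log2 difference of the 230 genes was -0.32, -0.41, -0.35 and -0.34 for rad6Δ tagged, rtf1-108-110AAA, then rad6-R6Q and rad6-R6A,M10A, against 0.10, 0.10, -0.12 and 0.01 for all genes tested. In rad6Δ untagged and H2B-K123R it was -0.03 and 0.12, against 0.30 and 0.37.

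Scaling to the K. lactis counts moved the median of all genes up by 0.31, 0.24, 0.05, 0.24, 0.19 and 0.27 (log2) in rad6Δ tagged, rad6Δ untagged, H2B-K123R, then rtf1-108-110AAA, then rad6-R6Q and rad6-R6A,M10A. In that order the antisense calls became 37 higher and 57 lower, 69 and 27, 59 and 27, 19 and 56, 20 and 52, and 21 and 40. The sense calls became 100 and 3, 79 and 6, 77 and 0, 47 and 3, 51 and 5, and 70 and 1. Shares over all genes were not computed under this scaling. These counts therefore do not separate a shift of the antisense-led genes from the shift of all genes.

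The sense counts of these genes were chosen to be below the antisense ones in wild type, and 53 of the 177 genes tested there could enter the test only through a mutant, so more calls upward than downward are favoured by the choice. The counts were 66 higher and 7 lower in rad6Δ tagged (background 21.5% and 20.2% of 5790 genes), 62 and 14 for rad6Δ untagged (22.3% and 20.5%), 75 and 3 for H2B-K123R (14% and 12.3%), 36 and 9 for rtf1-108-110AAA (11.9% and 12.6%), 44 and 10 for rad6-R6Q (14.6% and 14.5%), and 48 and 6 for rad6-R6A,M10A (12% and 13.2%). Of the 124 genes that pass the filter in wild type alone, 41, 41, 47, 25, 30 and 30 were higher in that order (33.1%, 33.1%, 37.9%, 20.2%, 24.2% and 24.2%), against 20.7%, 21.6%, 12.6%, 11.7%, 14.3% and 11.4% of all 5534 genes that pass it. Those lower were 7, 12, 3, 8, 9 and 5 (5.65%, 9.68%, 2.42%, 6.45%, 7.26% and 4.03%), against 21.1%, 21.4%, 12.9%, 13.1%, 15.2% and 13.8%. These shares too rest on the wild-type libraries that chose the genes and are given as a description. With the genes chosen on the other wild type the counts were 65 and 9, 64 and 18, 77 and 6, 37 and 11, 45 and 11, and 48 and 7. Without rad6Δ tagged replicate 1 its 7 became 4, and without rad6Δ untagged replicate 1 or 2 or WT untagged replicate 3 the 14 became 9. In H2B-K123R the 3 became 0 without its replicates 1 or 3 or WT untagged replicates 1 or 3, and 1 without its replicate 2. In rtf1-108-110AAA the 9 became 4 without WT tagged replicate 2. In rad6-R6Q the 10 became 16 without its replicate 2 and 6 without WT tagged replicate 2, and in rad6-R6A,M10A the 6 became 3 without its replicates 1 or 2 or WT tagged replicate 3.

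Strand balance, the log2 ratio of antisense to sense within a library, was tested as its own term. It shifted toward sense in 84, 60, 66, 58, 62 and 68 of the 230 genes in rad6Δ tagged, rad6Δ untagged, H2B-K123R, then rtf1-108-110AAA, then rad6-R6Q and rad6-R6A,M10A, against 11.9%, 7.30%, 6.17%, 7.40%, 9.68% and 7.40% of all 3741 genes. It shifted toward antisense in 6, 17, 14, 7, 12 and 7, against 12.9%, 19.5%, 25.3%, 10.1%, 9.97% and 9.92%. The rule required more antisense than sense counts in the wild-type libraries. Shifts toward sense are therefore favoured by the choice, and these shares are given as a description. All 230 genes were in this fit, including the 53 too low to test on the sense strand. With the genes chosen on the other wild type, the shifts toward sense were 80, 62, 65, 57, 60 and 66. The shifts toward antisense in rad6Δ untagged became 9 without WT untagged replicate 1 and 11 without its own replicate 1 or 2. Those in H2B-K123R became 8 without WT untagged replicate 1 and 9 without its replicate 3. Those in rtf1-108-110AAA became 4 without its own replicate 1 or WT tagged replicate 2, and 3 when WT tagged replicate 3 was left out. Those in rad6-R6A,M10A became 2 without replicate 2 of either group and 4 without replicate 3 of either group.

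**Figure D2:**
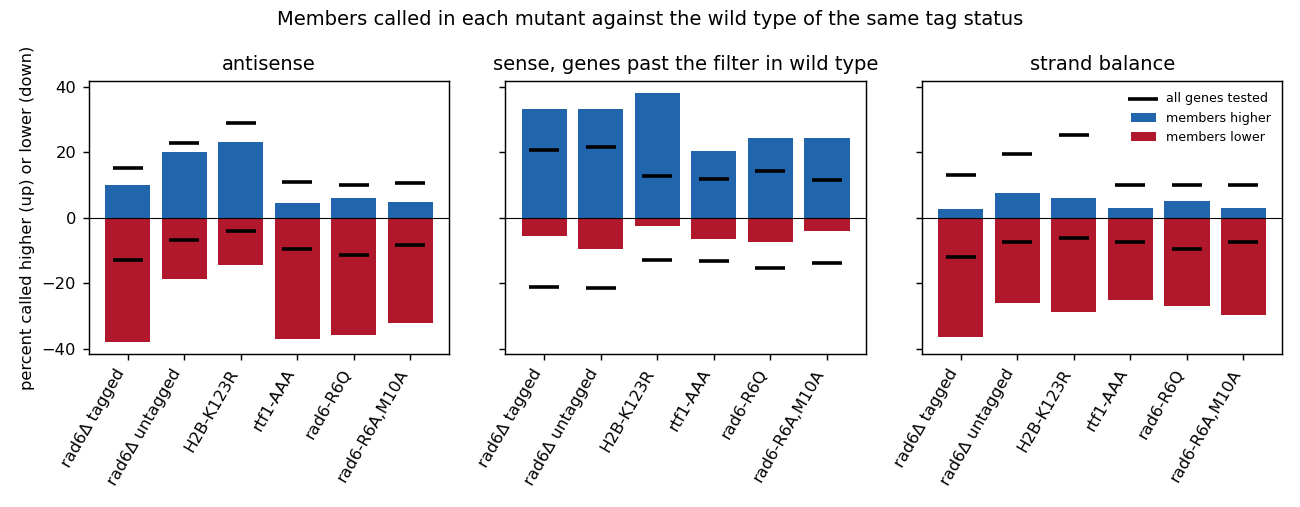
Percent of the antisense-led genes called higher (bars up) and lower (bars down) in each mutant against the wild type with matching tags, with black ticks for all genes of the same kind. Antisense counts and strand balance are over the 230 genes, with ticks for all 3741 tested, and sense counts over the 124 that pass the low-count filter in wild type alone, with ticks for all 5534 that do. On the antisense strand the bars down reach 37.8% for rad6Δ tagged and 14.3% for H2B-K123R, and on the sense strand the bars up reach 37.9% for H2B-K123R.

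Calls shared between mutants are counted with the reminder that mutants of one tag status share their wild-type libraries. Antisense was lower in at least 5 of 6 mutants in 31 of the 230 genes (13.5%, against 3.13% of all genes tested) and higher in 6 (2.61%, against 7.65%). Antisense was lower and sense higher in the same gene in 30 genes in rad6Δ tagged, 19 for rad6Δ untagged, 20 for H2B-K123R, 16 for rtf1-108-110AAA, 18 for rad6-R6Q and 18 for rad6-R6A,M10A. These were 16.9%, 10.7%, 11.3%, 9.04%, 10.2% and 10.2% of the 177 tested on both strands, against 3.33%, 2.1%, 1.26%, 1.6%, 2.44% and 1.57% of all 3242 genes so tested. The opposite pair of calls was found in 0, 4, 1, 1, 1 and 0 genes, against 3.39%, 6.35%, 4.66%, 2.07%, 2.41% and 2% of all. Both pairs use the wild-type libraries of the choice. In addition, only 124 of the 177 pass the low-count filter in wild type alone. The rest could enter the sense test only through a mutant, which favours calls of more sense. Pair shares over the 124 were not computed, so these shares are given as a description. OPT2, ROF1, CYB2, YPR027C, CLD1 and YLR030W had less antisense and more sense in all 6 mutants.

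**Figure D3:**
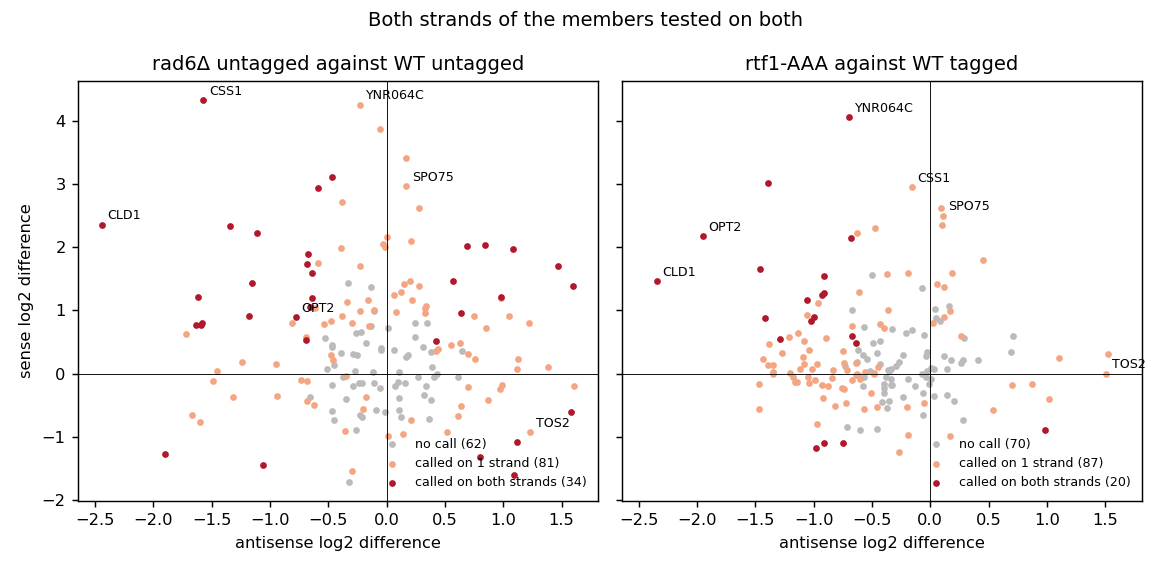
Antisense against sense log2 difference from wild type for the 177 antisense-led genes tested on both strands, in rad6Δ untagged and in rtf1-108-110AAA, coloured by whether no strand, 1 strand or both were called. In rad6Δ untagged 34 genes were called on both strands and 62 on neither, and in rtf1-108-110AAA 20 and 70.

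CLD1, a mitochondrial phospholipase that trims cardiolipin (chrVII:713709-715046, plus strand), lost most of its antisense reads in every mutant. Antisense was 10.9, 7.7 and 8.81 CPM in WT untagged, 9.69, 9 and 8.96 for WT tagged, 2.13, 1.43 and 1.51 for rad6Δ untagged, 1.71, 2.1 and 0.882 for rad6Δ tagged, 1.43, 1.61 and 2.78 for H2B-K123R, 1.73, 1.53 and 2.11 for rtf1-108-110AAA, 3.64, 1.85 and 2.58 for rad6-R6Q, and 2.69, 2.93 and 2.05 for rad6-R6A,M10A. Every mutant library was below every wild-type library. Sense ran the other way, from 4.09 to 7.86 CPM in the wild types to 25.3 to 31.9 for rad6Δ untagged, 26.9 to 29.8 for rad6Δ tagged, 17.5 to 32.1 for H2B-K123R, 18.2 to 22.3 for rtf1-108-110AAA, 19 to 22.4 for rad6-R6Q and 19.4 to 23.6 for rad6-R6A,M10A, again with no overlap. The log2 difference on the antisense strand was -2.55 ± 0.28 (SE, edgeR adjusted p = 7.77e-08) in rad6Δ tagged and -1.78 ± 0.25 (adjusted p = 8.16e-06) in rad6-R6Q, the largest and the smallest of the 6. On the sense strand it ran from 1.46 ± 0.20 for rtf1-108-110AAA (adjusted p = 1.83e-05) to 2.36 ± 0.20 for rad6Δ untagged (adjusted p = 1.37e-08).

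OPT2, an oligopeptide transporter (chrXVI:924304-926937, minus strand) whose promoter is printed above, shifted the same way, and further in the substitution mutants than in the RAD6 deletions. Antisense was 25.8, 25 and 27.5 CPM in WT untagged, 26.9, 29.7 and 30 for WT tagged, 12, 15.7 and 17.6 for rad6Δ untagged, 16.4, 16.3 and 11.3 for rad6Δ tagged, 10.5, 10 and 7.25 for H2B-K123R, 7.66, 5.72 and 8.93 for rtf1-108-110AAA, 4.3, 7.47 and 7.24 for rad6-R6Q, and 6.88, 7.46 and 8.66 for rad6-R6A,M10A. Sense was 14.6 to 20 CPM in WT untagged, 13.9 to 19.8 for WT tagged, 27.6 to 38.6 for rad6Δ untagged, 30.6 to 39.8 for rad6Δ tagged, 83.2 to 98.3 for H2B-K123R, 66.6 to 87.5 for rtf1-108-110AAA, 76.1 to 87.9 for rad6-R6Q and 73 to 91.6 for rad6-R6A,M10A. On both strands the wild types, the deletions and the substitution mutants formed 3 levels whose libraries did not overlap. Against the deletion of the same tag status, where no library had a part in choosing the genes, antisense was lower by a log2 difference of -0.71 ± 0.19 for H2B-K123R (edgeR adjusted p = 0.0318), -0.97 for rtf1-108-110AAA (adjusted p = 0.00451), -1.20 for rad6-R6Q (adjusted p = 0.000653) and -0.94 for rad6-R6A,M10A (adjusted p = 0.00876). Sense was higher by 1.5 ± 0.16, 1.09, 1.23 and 1.23 in that order.

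EPL1, a subunit of the NuA4 histone acetyltransferase (chrVI:87847-90345, minus strand), is one of the genes where both strands were well covered in wild type, with 2049 antisense and 1608 sense counts. Antisense was 35.3 to 38.8 CPM in WT untagged and 41.3 to 51.4 for WT tagged, 10.4 to 13.2 for rad6Δ untagged and 11.3 to 12.6 for rad6Δ tagged, and 15.3 to 24.2 in the substitution mutants. The fall was called in all 6 mutants, with log2 differences from -2.02 ± 0.15 for rad6Δ tagged (edgeR adjusted p = 8.83e-11) to -1.03 ± 0.15 for H2B-K123R (adjusted p = 4.34e-06). Sense rose in 5 mutants by 0.46 to 0.77 and gave 0.33 ± 0.15 for H2B-K123R (adjusted p = 0.115). The sense call in rad6-R6A,M10A was lost without its replicate 1 or 3 or WT tagged replicate 1 or 3 (adjusted p = 0.063, 0.143, 0.0923 and 0.136), that in rad6-R6Q without WT tagged replicate 3 (0.0559), and that in rtf1-108-110AAA without its replicate 3 or WT tagged replicate 3 (0.0639 and 0.0615). YPR027C had antisense of 9.59 to 11.2 CPM in the wild types and 1.21 to 6.36 in the mutants, and sense of 0.262 to 1.71 and 2.79 to 6.22, with no overlap on either strand and log2 differences of -1.08 to -1.71 on antisense and 2.05 to 3.02 on sense.

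**Figure D4:**
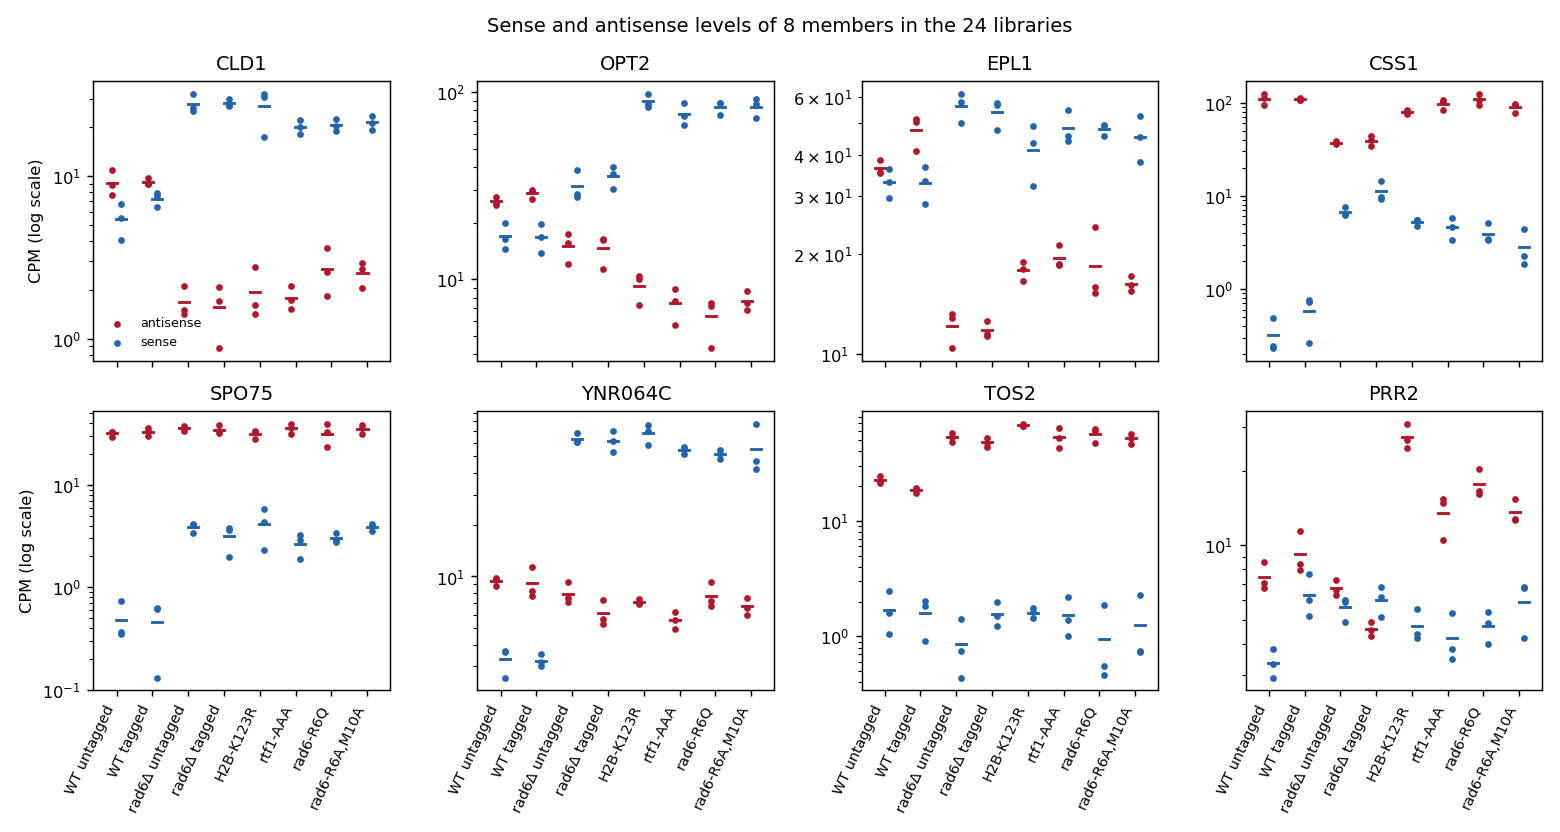
Antisense and sense CPM (log scale) of CLD1, OPT2, EPL1, CSS1, SPO75, YNR064C, TOS2 and PRR2 in each of the 24 libraries by group, with bars for the group means. OPT2 sense sits at 13.9 to 20 CPM in the wild types, 27.6 to 39.8 in the RAD6 deletions and 66.6 to 98.3 in the substitution mutants, and SPO75 antisense stays between 23.2 and 39.6 in all groups.

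At HPF1, CSS1 and GAS2 the antisense level set the RAD6 deletions apart from the substitution mutants. CSS1 (chrIX:23119-26106, minus strand) had antisense of 124, 94.5 and 111 CPM in WT untagged, 112, 107 and 107 for WT tagged, 36.7, 38.6 and 36.2 for rad6Δ untagged, 39.9, 34.2 and 43.4 for rad6Δ tagged, 83.8, 74.6 and 80.5 for H2B-K123R, 107, 102 and 83.6 for rtf1-108-110AAA, 123.3, 95.3 and 105 for rad6-R6Q, and 77.5, 93.4 and 96.3 for rad6-R6A,M10A. The deletions were below all other libraries. The log2 difference from wild type was -1.48 ± 0.13 for rad6Δ tagged (edgeR adjusted p = 2.75e-09) and -1.57 ± 0.13 for rad6Δ untagged (adjusted p = 1.21e-09). It was -0.47 ± 0.13 for H2B-K123R (adjusted p = 0.00656, and 0.0552 without WT untagged replicate 1), and it was not called in the other 3. Against the deletions, antisense was higher by 1.10 for H2B-K123R, 1.32 for rtf1-108-110AAA, 1.46 for rad6-R6Q and 1.19 for rad6-R6A,M10A, all called. CSS1 sense was almost silent in wild type, with 2 to 6 counts or 0.233 to 0.757 CPM a library. It could thus enter the sense test only through a mutant, which favours a rise. CSS1 sense was called higher in all 6 mutants, at 6.22 to 14.3 CPM in the deletions and 1.83 to 5.82 in the substitution mutants.

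HPF1 (chrXV:28703-31606, minus strand) had antisense of 219 to 282 CPM in the wild types, 78.7 to 101 in the deletions and 203 to 314 in the substitution mutants. It was called lower in rad6Δ tagged (log2 difference -1.45 ± 0.14, edgeR adjusted p = 5.86e-09) and rad6Δ untagged (-1.34 ± 0.14, adjusted p = 2e-08) and in no substitution mutant. Its sense rose in all 6, from 1.28 to 2.65 CPM in the wild types to 6.27, 7.02 and 8.83 for rad6Δ untagged, 15.5, 24.9 and 14.4 for rad6Δ tagged, 11, 12.2 and 9.79 for H2B-K123R, and 3.76 to 8.49 in the other 3. The sense rise in rad6-R6Q, 1.12 ± 0.32 (adjusted p = 0.0121), was lost without WT tagged replicate 2 (adjusted p = 0.0742). HPF1 was the 1 gene of the 230 that differed on the sense strand between rad6Δ tagged and rad6Δ untagged, by 1.30 ± 0.25 (adjusted p = 0.0301, background 0.207% higher). GAS2, a glucan-modifying enzyme of the spore wall (chrXII:816094-817761, plus strand), had antisense of 51.1 to 66.7 CPM in the wild types, 21.9 to 31.1 in the deletions and 35.7 to 70.3 in the substitution mutants, and its sense rose in all 6 mutants by 0.52 to 1.38.

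At SPO75 and YNR064C the sense strand rose with little or no change opposite. SPO75, a gene needed for sporulation (chrXII:137940-140546, minus strand), had antisense of 23.2 to 39.6 CPM over all 24 libraries, with no call in any mutant. Its sense was 3, 3 and 6 counts in WT untagged and 1, 5 and 5 for WT tagged, or 0.131 to 0.734 CPM, and 1.91 to 5.84 CPM in the mutants, with no overlap. The sense log2 difference ran from 2.50 ± 0.45 for rtf1-108-110AAA (edgeR adjusted p = 0.00033) to 3.08 ± 0.41 for H2B-K123R (adjusted p = 9.08e-06). With so few wild-type counts, SPO75 could enter the sense test only through a mutant, which favours a rise.

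YNR064C, an epoxide hydrolase (chrXIV:749136-750008, minus strand), changed from antisense-led to sense-led in each mutant. Its sense was 2.58, 3.62 and 3.67 CPM in WT untagged, 3.54, 3.16 and 3.03 for WT tagged, 60.7, 60.4 and 68.9 for rad6Δ untagged, 61.6, 53 and 70 for rad6Δ tagged, 70.4, 76.4 and 58 for H2B-K123R, 56.5, 51.4 and 55.3 for rtf1-108-110AAA, 51.8, 54.5 and 48.5 for rad6-R6Q, and 77.6, 47.1 and 42 for rad6-R6A,M10A. Its antisense lay between 4.91 and 11.4 CPM throughout. The sense log2 differences were 3.99 to 4.37, each with an SE of 0.21 or 0.22. On the antisense strand 2 mutants were called lower, rad6Δ tagged (-0.58, adjusted p = 0.0188) and rtf1-108-110AAA (-0.70, adjusted p = 0.00767). The first was lost without rad6Δ tagged replicate 2 or 3 or WT tagged replicate 2 (adjusted p = 0.0676, 0.089 and 0.17), and the second without WT tagged replicate 2 (adjusted p = 0.0954). With K. lactis scaling they were -0.28 and -0.47, without a call.

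STL1, a glycerol transporter, had 1 sense count in each WT untagged library. In H2B-K123R its sense was 12.4, 18.2 and 6.89 CPM, at least 34.6-fold higher than a floor of 3 counts a library, and in rad6Δ untagged 1.76, 1.97 and 2.11 CPM, at least 5.38-fold higher. In WT tagged it was 0.524, 1.22 and 0.505 CPM, and it was called higher in rad6Δ tagged (edgeR adjusted p = 0.0208) and rad6-R6A,M10A (adjusted p = 0.00051). The rad6Δ tagged call was lost without its replicate 1 or 2 (adjusted p = 0.0518 and 0.0524) or WT tagged replicate 1 or 3 (0.0892 and 0.083). H2B-K123R was above every other group. At these wild-type levels STL1 could enter the sense test only through a mutant, which favours a rise.

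At other genes the antisense strand moved and the sense strand was not called. PHO85, a cyclin-dependent kinase of phosphate signalling (chrXVI:492018-493037, minus strand), had antisense of 14.2 to 16.2 CPM in WT untagged, 15.9 to 21.4 for WT tagged, 3.54 to 7.65 in the RAD6 deletions and 5.27 to 7.96 for rtf1-108-110AAA, then rad6-R6Q and rad6-R6A,M10A. In H2B-K123R it was 11.6, 13.6 and 10.9 CPM, a log2 difference of -0.32 (edgeR adjusted p = 0.158), while the other 5 mutants were called lower by -1.27 to -1.99. NGK1 antisense (chrXII:1025214-1026515, plus strand) was 18.9 to 25.7 CPM in the wild types and 3.53 to 14.2 in the mutants, a fall called in all 6 with log2 differences of -0.88 to -1.78. Its opposite-strand neighbour VMA6, a subunit of the vacuolar proton pump 340 bases away, had no sense call in any mutant.

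Antisense rose in all 6 mutants at TOS2, RIM13, YAT1 and FAT3. TOS2, a protein of the bud neck (chrVII:937124-938992, minus strand), had antisense of 21.5, 21.8 and 24.2 CPM in WT untagged and 19.4, 17.4 and 18.8 for WT tagged, and 42.9 to 69.5 in the mutants, with H2B-K123R the highest at 65.6, 69.5 and 66.7. The log2 differences were 1.23 to 1.62, each ± 0.14, and the sense strand was not called. RIM13, a protease of the alkaline response (chrXIII:565999-568182, minus strand), rose from 4.67 to 7.44 CPM to 11.4 to 16.4, by 0.86 to 1.58. Its neighbour NUP53, a nuclear pore gene 136 bases beyond the 3′ end on the other strand, also rose in all 6 mutants on its own sense strand, by 0.56 to 0.82, and its part in the antisense reads was not tested.

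YAT1, a carnitine acetyltransferase of mitochondria (chrI:190193-192256, plus strand), rose from 3.65 to 7.94 CPM to 7.66 to 18.2, by 0.97 to 1.58. With WT untagged as control its calls were lost for rad6-R6Q (0.53) and rtf1-108-110AAA (0.50). FAT3, a protein of fatty acid uptake (chrXI:89284-91536, minus strand), rose from 1.98 to 3.67 CPM to 4.71 to 9.78, by 0.90 to 1.61. FAT3 sense was called lower in rtf1-108-110AAA (-0.89 ± 0.30, edgeR adjusted p = 0.0343) and rad6-R6Q (-0.92 ± 0.29, adjusted p = 0.0217). The first was lost without its replicate 2 or 3 or WT tagged replicate 2 or 3 (adjusted p = 0.134, 0.0753, 0.0913 and 0.121), and the second without its replicate 1 or WT tagged replicate 2 or 3 (0.0533, 0.0606 and 0.0867), and both were lost with DESeq2 (0.086 and 0.0524).

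PRR2, a protein kinase of the pheromone response (chrIV:74446-76545, minus strand), moved in opposite directions. Its antisense was 8.58, 7 and 6.73 CPM in WT untagged, 11.4, 8.39 and 7.95 for WT tagged, 6.27, 6.58 and 7.23 for rad6Δ untagged, 4.88, 4.32 and 4.54 for rad6Δ tagged, 26.5, 24.6 and 30.9 for H2B-K123R, 15.3, 14.7 and 10.5 for rtf1-108-110AAA, 20.3, 16.5 and 16.1 for rad6-R6Q, and 12.8, 12.6 and 15.4 for rad6-R6A,M10A. Each substitution mutant was above the RAD6 deletion of its tag status without overlap. Those differences were 2.03 for H2B-K123R, 1.55 for rtf1-108-110AAA, 1.94 for rad6-R6Q and 1.57 for rad6-R6A,M10A, all called. Against wild type it fell in rad6Δ tagged (log2 difference -1.01, edgeR adjusted p = 0.000193), gave -0.15 without a call in rad6Δ untagged, and rose in the 4 substitution mutants by 1.88, 0.54, 0.93 and 0.56 in the same order. The calls in rtf1-108-110AAA and rad6-R6A,M10A did not survive leaving out WT tagged replicate 3 (adjusted p = 0.116 and 0.108) or replicate 2 (0.0801 and 0.0708), nor rtf1-108-110AAA replicate 1 or 2 (0.0745 and 0.094) or rad6-R6A,M10A replicate 3 (0.0816).

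At the gene with most antisense reads, YLR264C-A, antisense was 1228, 1235 and 1253 CPM in WT untagged, 1311, 1090 and 1414 for WT tagged, 941, 760 and 719 for rad6Δ untagged, and 749, 744 and 824 for rad6Δ tagged. The deletions were below all wild-type libraries, with log2 differences of -0.62 ± 0.17 (untagged, edgeR adjusted p = 0.00558) and -0.72 ± 0.17 (tagged, adjusted p = 0.00161), and no other mutant was called. RPS28B, a ribosomal protein gene 493 bases beyond its 3′ end on the other strand, fell on its sense strand in the same groups, by 0.51 for rad6Δ untagged (adjusted p = 0.0309) and by 0.75 for rad6Δ tagged (adjusted p = 0.00265). The part of RPS28B reads in the antisense count was not tested.

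Of the 79 genes with an opposite-strand neighbour beyond the 3′ end, 68 had a neighbour in the count tables. Where antisense was higher, the neighbour's sense was also higher in 7 of 12 genes in rad6Δ tagged, 10 of 18 for rad6Δ untagged, 4 of 17 for H2B-K123R, 2 of 5 for rtf1-108-110AAA, 3 of 7 for rad6-R6Q and 1 of 5 for rad6-R6A,M10A. Where antisense was lower, the neighbour's sense was also lower in 9 of 24, 4 of 10, 0 of 7, 8 of 22, 5 of 19 and 6 of 18. Whatever the antisense call, 21.2%, 24.2%, 15.2%, 10.6%, 16.7% and 7.58% of the 66 neighbours tested on their sense strand were higher and 30.3%, 21.2%, 9.09%, 22.7%, 22.7% and 24.2% lower, beside the sense background of all genes given above. Whether the 2 strands' calls go together was not tested.

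The list of 73 meiosis and sporulation genes held 18 of the antisense-led genes. Of these 18, antisense was higher in 1 and lower in 5 for rad6Δ tagged, 2 and 4 for rad6Δ untagged, 4 and 2 for H2B-K123R, 0 and 6 for rtf1-108-110AAA, 1 and 7 for rad6-R6Q, and 0 and 6 for rad6-R6A,M10A. The genes lower were 27.8%, 22.2%, 11.1%, 33.3%, 38.9% and 33.3% of the 18, beside these shares of the 230 (37.8%, 18.7%, 14.3%, 37%, 35.7% and 32.2%). Those higher were 5.56%, 11.1%, 22.2%, 0%, 5.56% and 0%, beside 10%, 20%, 23%, 4.35%, 6.09% and 4.78% of the 230. The transcription factor NDT80, which turns on the middle meiotic genes, and the spore membrane gene SMA2 had less antisense in all 6 mutants. With K. lactis scaling NDT80 lost that call for rad6-R6A,M10A (-0.42) and rad6-R6Q (-0.46). Of the 14 tested on the sense strand, 4, 7, 9, 3, 4 and 5 were higher in the same order (28.6%, 50%, 64.3%, 21.4%, 28.6% and 35.7%, against 37.3%, 35%, 42.4%, 20.3%, 24.9% and 27.1% of the 177). Those lower were 1, 0, 0, 2, 2 and 1 (7.14%, 0%, 0%, 14.3%, 14.3% and 7.14%, against 3.95%, 7.91%, 1.69%, 5.08%, 5.65% and 3.39% of the 177). Among the list genes outside the 230, of 49 tested on the sense strand, 26, 30, 31, 14, 15 and 19 were higher (53.1%, 61.2%, 63.3%, 28.6%, 30.6% and 38.8%, against 21.5%, 22.3%, 14%, 11.9%, 14.6% and 12% of all genes). Those lower were 3, 1, 2, 5, 6 and 6 (6.12%, 2.04%, 4.08%, 10.2%, 12.2% and 12.2%, against 20.2%, 20.5%, 12.3%, 12.6%, 14.5% and 13.2% of all genes).

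IME4, which encodes an RNA methyltransferase and lies under RME2 (chrVII:142246-144048, plus strand), kept an antisense level of 3.10 to 8.71 CPM with no call. Its sense was 0.123, 0.233 and 0.857 CPM in WT untagged, 0.524, 0.486 and 0.883 for WT tagged, 1.5, 0.987 and 0.903 for rad6Δ untagged, 2.07, 1.11 and 1.51 for rad6Δ tagged, 2.09, 0.921 and 1.81 for H2B-K123R, 3.9, 5.59 and 2.51 for rtf1-108-110AAA, 1.55, 3.14 and 1.65 for rad6-R6Q, and 2.15, 2.57 and 1.48 for rad6-R6A,M10A. All 18 mutant libraries were above all wild-type ones, but narrowly, with a lowest mutant value of 0.903 CPM and a highest wild-type value of 0.883. IME4 had 25 sense counts over all wild-type libraries. It could thus enter the sense test only through a mutant, which favours a rise. Its sharing of reads with the other strand was 28 counts, beside 309 antisense counts. The log2 difference was 1.29 for rad6Δ tagged (edgeR adjusted p = 0.0528) and 1.44 for rad6Δ untagged (adjusted p = 0.0565), which missed the threshold, and 1.96, 2.62, 1.74 and 1.69 for H2B-K123R, then rtf1-108-110AAA, then rad6-R6Q and rad6-R6A,M10A, which passed it. The call in H2B-K123R was lost without its replicate 1 or WT untagged replicate 1 or 2 (adjusted p = 0.0625, 0.0705 and 0.057), and that in rad6-R6Q without its replicate 2 or WT tagged replicate 2 (0.0705 and 0.0513). That in rad6-R6A,M10A was lost without its replicate 2 or WT tagged replicate 1 or 2 (0.0635, 0.0621 and 0.064). Between rtf1-108-110AAA and rad6Δ tagged the difference was 1.33 (adjusted p = 0.0237).

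ZIP2, a synapsis gene under RME3 (chrVII:33098-35212, plus strand), had antisense called lower in rad6Δ tagged alone (-0.48, edgeR adjusted p = 0.0429), a call that was lost without any one of the 3 rad6Δ tagged libraries (adjusted p = 0.0689, 0.0968 and 0.0918) and without WT tagged replicate 2 or 3 (0.059 and 0.153). NDT80 (chrVIII:356561-358444, plus strand) differed between the wild types on its sense strand, with 4.17, 3.62 and 3.55 CPM in WT untagged and 7.6, 7.29 and 8.07 for WT tagged (log2 difference 1.02, adjusted p = 0.0156). Its sense fell in the 4 tagged mutants against WT tagged, by 0.98 to 1.39, to 1.83 to 4.64 CPM, a range that overlaps WT untagged. Against WT untagged as control the sense differences were 0.04 for rad6Δ tagged and 0.00 for rad6-R6Q. In H2B-K123R, whose control is WT untagged, NDT80 sense was called higher, and the sign reversed against WT tagged. RIM4, a repressor of translation in meiosis that was not on the list (chrVIII:56649-58790, plus strand), had sense of 0.817 to 2.77 CPM in the wild types, 14.6 to 18.1 for rad6Δ untagged, 16.5 to 27.2 for rad6Δ tagged and 3.12 to 7.01 in the substitution mutants. Each substitution mutant was below the deletion of its tag status, by log2 differences of -1.37 for H2B-K123R, -2.61 for rtf1-108-110AAA, -2.10 for rad6-R6Q and -2.44 for rad6-R6A,M10A, all called.

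The list of 38 genes of galactose, maltose and non-fermentable carbon use and hexose transport also held 18 antisense-led genes. Their antisense was higher in 2 and lower in 6 for rad6Δ tagged, 5 and 3 for rad6Δ untagged, 5 and 3 for H2B-K123R, 1 and 7 for rtf1-108-110AAA, 1 and 9 for rad6-R6Q, and 1 and 6 for rad6-R6A,M10A. The genes lower were 33.3%, 16.7%, 16.7%, 38.9%, 50% and 33.3% of these 18, beside the shares of the 230 given with the meiosis list. Those higher were 11.1%, 27.8%, 27.8%, 5.56%, 5.56% and 5.56%, beside 10%, 20%, 23%, 4.35%, 6.09% and 4.78% of the 230. Of 17 tested on the sense strand, 8, 9, 10, 1, 4 and 6 were higher (47.1%, 52.9%, 58.8%, 5.88%, 23.5% and 35.3%). Those lower were 1, 0, 0, 2, 2 and 1 (5.88%, 0%, 0%, 11.8%, 11.8% and 5.88%). Of all 177 antisense-led genes tested there, 37.3%, 35%, 42.4%, 20.3%, 24.9% and 27.1% were higher and 3.95%, 7.91%, 1.69%, 5.08%, 5.65% and 3.39% lower. JEN1, the lactate and pyruvate permease, had antisense of 9.22 to 14.2 CPM in the wild types and 2.89 to 9.03 in the mutants, called lower in all 6, and its sense rose in 5, by 0.81 to 2.20, with 0.64 for rtf1-108-110AAA (edgeR adjusted p = 0.0781). CIT3, a mitochondrial citrate synthase, was the list member with more sense in all 6 mutants. YAT1 was the member with more antisense in all 6. GAL4, the activator of the galactose genes, lies opposite YNCP0002W and had no call on either strand, with antisense of 41.3 to 59.3 CPM in every library.

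**Figure D5:**
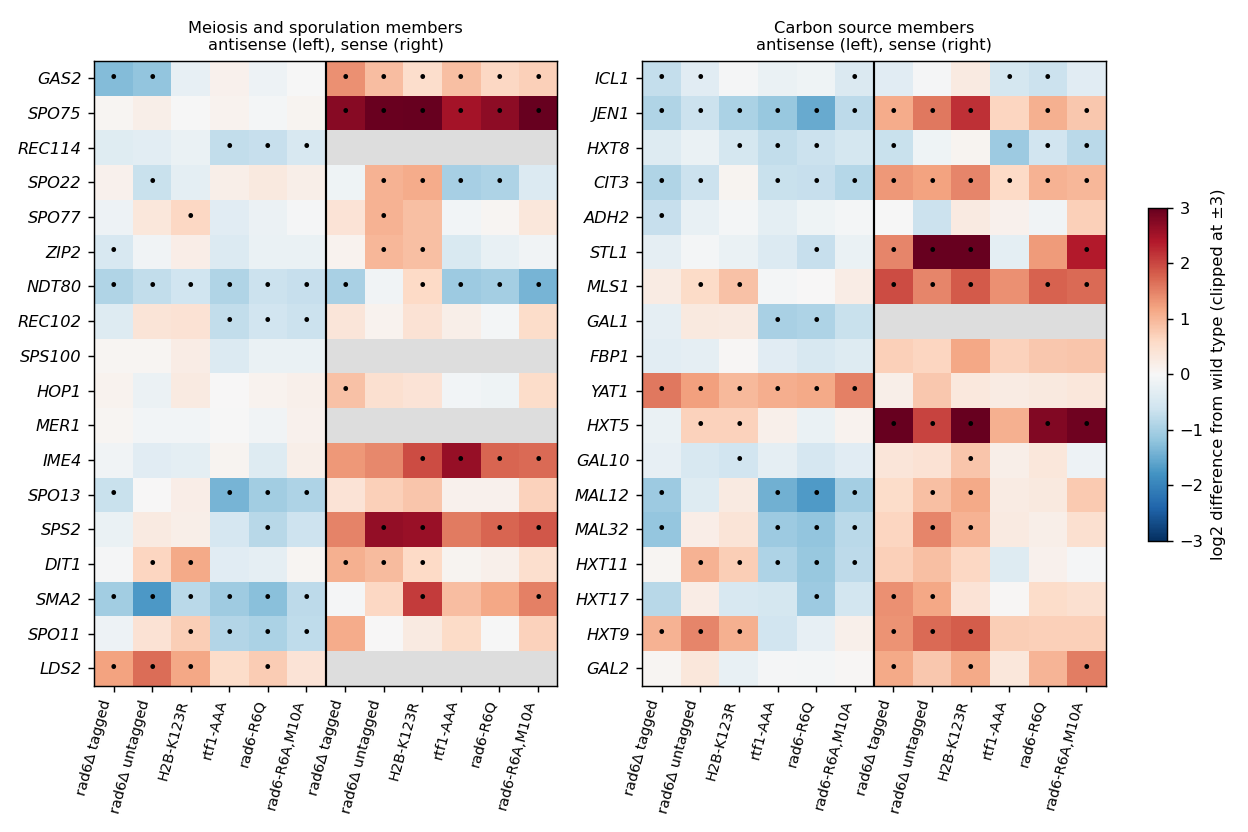
Log2 difference from wild type, antisense and sense, of the 18 antisense-led genes on the meiosis list and the 18 on the carbon list in each of the 6 mutants, with colours clipped at 3 and -3. Dots mark calls and grey cells genes not tested, and the antisense dots of NDT80, SMA2 and JEN1 are on the side of a fall in all 6 mutants while SPO75 and CIT3 sense are on the side of a rise.

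None of the 27 counted genes of chromatin and RNA decay factors known to restrain antisense transcripts was antisense-led. With 230 of all 6571 genes antisense-led, 0 of 27 is not read as a trait of these factors. On the sense strand 9 were higher and 2 lower in rad6Δ tagged, 7 and 2 for rad6Δ untagged, 3 and 2 for H2B-K123R, 9 and 1 for rtf1-108-110AAA, 10 and 2 for rad6-R6Q, and 6 and 1 for rad6-R6A,M10A. The genes higher were 33.3%, 25.9%, 11.1%, 33.3%, 37% and 22.2% of the 27, beside 21.5%, 22.3%, 14%, 11.9%, 14.6% and 12% of all genes. Those lower were 7.41%, 7.41%, 7.41%, 3.7%, 7.41% and 3.7%, beside 20.2%, 20.5%, 12.3%, 12.6%, 14.5% and 13.2%. On this list DOT1, the H3 methyltransferase that needs H2B ubiquitin, was lower in all 6 mutants, and POB3, a subunit of the histone chaperone FACT, was higher in all 6, a pair chosen here after their values were seen.

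Comparisons without wild type share no library with the rule. Between rad6Δ tagged and rad6Δ untagged, edgeR called 0 of the 230 genes on the antisense strand (background 0%), with 10 of them and 102 of all 3741 genes at an unadjusted p under 0.05, and DESeq2 called 1. H2B-K123R had 22 higher and 4 lower than rad6Δ untagged (3.88% and 0.535%). Against rad6Δ tagged, rtf1-108-110AAA had 16 higher and 18 lower (1.5% and 1.68%, or 3.18% either way), rad6-R6Q 14 and 9 (1.23% and 1.42%), and rad6-R6A,M10A 10 and 7 (0.775% and 0.855%, or 1.63% either way). With K. lactis scaling H2B-K123R had 10 higher and 11 lower and rad6-R6Q 9 and 14. The 22 became 10 without rad6Δ untagged replicate 2 and 14 without H2B-K123R replicate 3, and the 4 became 2 without rad6Δ untagged replicate 2. In rtf1-108-110AAA the 18 became 7, 10 and 6 without rad6Δ tagged replicate 1, 2 or 3, and 8 and 5 without its own replicate 2 or 3. In rad6-R6Q the 14 became 8 without rad6Δ tagged replicate 1 or 2 and 9 without its own replicate 3, and the 9 became 5 without rad6Δ tagged replicate 1 or 3. In rad6-R6A,M10A the 10 became 6 without its replicate 3 or rad6Δ tagged replicate 2, and the 7 became 3 and 2 without its replicate 1 or 2 and 2 and 3 without rad6Δ tagged replicate 1 or 3.

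On the sense strand H2B-K123R had 18 genes higher and 1 lower than rad6Δ untagged (background 5.25% and 5.27%). Of the 124 genes past the low-count filter in wild type alone, 8.06% were higher and 0.806% lower. All 5534 such genes gave 5.26% and 5.46%. Against rad6Δ tagged, sense was higher in 4 genes and lower in 29 in rtf1-108-110AAA (6.44% and 7.89%), and in 3 and 28 for rad6-R6Q (8.20% and 8.22%). It was higher in 2 and lower in 12 for rad6-R6A,M10A (3.71% and 4.84%). Of the 177 genes tested, those lower were 16.4%, 15.8% and 6.78%. Those of the 177 that entered the test only through a mutant favour calls downward where rad6Δ tagged was the high group. Of the 124 past the filter in wild type alone, 14.5%, 15.3% and 4.84% were lower, against 7.59%, 8.04% and 4.75% of all 5534. Those higher were 2.42%, 2.42% and 1.61%, against 6.7%, 8.57% and 3.87%. For rad6-R6A,M10A the share lower was near its background. Strand balance against rad6Δ tagged shifted toward antisense in 18, 17 and 12 genes in the same order (1.68%, 1.34% and 1.04%) and toward sense in 2, 3 and 1 (1.28%, 1.47% and 0.829%).

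The wild types differed on these genes as well. WT tagged had 28 of the 230 higher and 3 lower than WT untagged on the antisense strand (4.70% and 0.481%). The 28 became 12 without WT untagged replicate 1 or 2, 13 without WT tagged replicate 1 and 17 when WT tagged replicate 3 was left out. The 3 became 0 without WT untagged replicate 1 and 1 without WT untagged replicate 2 or any of the WT tagged libraries. With the other wild type as control, an alternative chosen after seeing the data, the antisense calls became 45 higher and 55 lower in rad6Δ tagged, 23 and 77 for rad6Δ untagged, 20 and 53 for H2B-K123R, 22 and 45 for rtf1-108-110AAA, 25 and 42 for rad6-R6Q, and 26 and 42 for rad6-R6A,M10A. Against WT tagged the 2 RAD6 deletion groups thus had 23 and 87 or 23 and 77, and against WT untagged 45 and 55 or 46 and 43. The split of these counts moved with the wild type used, and so did the background. For rad6Δ tagged against WT tagged the background was 15.3% higher and 12.9% lower. For rad6Δ untagged against WT untagged it was 22.7% and 6.76%. Shares over all genes with the other wild type as control were not computed. Tested as an interaction, the effect of deleting RAD6 was called higher in the tagged setting for 0 of the 230 genes and lower for 9 (background 0.0535% and 1.10%, or 1.15% either way).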

How the data were processed

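The deposited tables hold raw counts per gene for 24 libraries, as sense, antisense and unstranded counts of S. cerevisiae genes and counts of K. lactis genes (96 columns, all used). The submitters' processing notes name STAR 2.7.5a, featureCounts, DESeq2 and the builds R64 and sacCer3, without the role of each here. The 230 genes and the gene lists were chosen with earlier results of these data known.

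Counts were tested with edgeR 4.0.16 in R 4.3.3 (quasi-likelihood F test, 8 group means over 24 libraries), with limma 3.58.1. TMM factors of the sense table scaled both strands. Strand balance was the difference of strand effects in a model of both tables. P-values were adjusted by Benjamini-Hochberg over 3741 genes (antisense, balance) or 5790 (sense), and they measure the spread between biological replicates. Named genes are those with the most wild-type antisense counts, next to the minimum, with the largest called changes in each mutant, or called in at least 5 mutants. Copies (at least 90% identity over 50% of the length) were found with BLAST+ 2.17.0. The alternatives were DESeq2 1.42.0, no filter on low counts, K. lactis scaling, a replicate block, other rule thresholds and leaving out each library. The other wild type as control and the test of the deletion effect between tag backgrounds were added after seeing the data. The fits were tested on simulated data. An exact permutation test of 3 against 3 libraries cannot go below p = 0.1, so none is given.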

Additional observations from a re-analysis of the deposited data

Results flagged for a closer look

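The effect of deleting RAD6 was measured in 2 settings, tagged against WT tagged and untagged against WT untagged, and the difference between them was tested with an interaction term (edgeR, adjusted over all genes tested). On the antisense strand 9 of the 230 genes passed, all with a lower value in the tagged setting (0.0535% of all genes higher, 1.10% lower). The log2 effect, tagged minus untagged, was -1.23 for TAX4 (-1.12 and 0.11, adjusted p = 0.00453), -0.91 for YMR181C (-1.30 and -0.39, adjusted p = 0.0389) and -0.92 for ROF1 (-1.59 and -0.68, adjusted p = 0.028). It was -1.27 for XYL2 (-0.92 and 0.34, adjusted p = 0.0296), -0.98 for SLZ1 (-0.18 and 0.80, adjusted p = 0.0381), -1.53 for TIS11 (-1.18 and 0.34, adjusted p = 0.00939) and -1.37 for PRY1 (-1.09 and 0.27, adjusted p = 0.025). YNL034W (-1.02, adjusted p = 0.015) and MAL32 (-1.37, adjusted p = 0.0381) have near-identical copies, and their counts are uncertain. In all 9 genes the WT tagged libraries were above the WT untagged ones, and no difference between the 2 deletion groups was called. TAX4 antisense, for example, was 19.5, 16.8 and 20.2 CPM in WT untagged, 48.1, 48 and 45.3 for WT tagged, 21.4, 20.4 and 19.1 for rad6Δ untagged, and 19.4, 19.7 and 25.8 for rad6Δ tagged.

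On strand balance 2 of the 230 genes passed, against 0.588% of all genes tested (22 of 3741), which is near that background. SPO22, a meiotic gene, gave 1.98 (0.26 tagged and -1.71 untagged, adjusted p = 0.0315), and LYS20, which has a near-identical copy, gave -2.38 (-1.38 and 1.01, adjusted p = 0.0178). SPO22 antisense was 36.7, 27.2 and 25.6 CPM in WT untagged and 19, 21.8 and 15 for WT tagged, while its sense was 2.45, 4.79 and 4.04 CPM and 9.17, 8.51 and 12.7.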

How the results depend on the processing

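Of 516 called results on 56 named genes, 491 kept their call with DESeq2, 478 without the filter on low counts and 412 with the other wild type as control, where 85 lost it and 19 reversed. Of 337 tested, 292 kept it with K. lactis scaling and 335 with a replicate block. Leaving out 1 library in turn gave 3096 checks, of which 2688 kept the call and 408 lost it. JEN1, SMA2, CIT3, GAS2, CYB2, ROF1 and YLR030W are not among the 56 and were not checked singly. The largest edgeR adjusted p of their calls reached 0.0452 for CIT3 sense, 0.0412 for SMA2 antisense and 0.0373 for JEN1 antisense. Same-numbered libraries deviated together (correlation over 0.1) in 27 of 36 pairs on the antisense strand and 17 of 36 on the sense strand, and the labels do not say that numbers pair libraries. The correlations ran from -0.147 to 0.699 on antisense and from -0.419 to 0.517 on sense. Libraries recur between comparisons, so the 36 pairs are not independent. With the block, rad6-R6A,M10A had 82 genes lower on antisense in place of 74. The causes of these shifts were not tested. Depth limits the sense strand most, where 53 genes could not be tested.

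With the other wild type as control, antisense calls (higher and lower) were 45 and 55 for rad6Δ tagged, 23 and 77 for rad6Δ untagged, 20 and 53 for H2B-K123R, 22 and 45 for rtf1-108-110AAA, 25 and 42 for rad6-R6Q, and 26 and 42 for rad6-R6A,M10A. Sense falls became 1 for H2B-K123R and 18 for rad6-R6Q, and balance shifts toward antisense 9 for rad6Δ untagged and 19 for rad6-R6Q. Reversed log2 differences, all on antisense unless said, were -0.58, 0.61, 0.61, -0.48 and 0.52 for ECL1 (H2B-K123R, rad6-R6A,M10A, rad6-R6Q, rad6Δ untagged, rtf1-108-110AAA), -0.70, 0.41, 0.13, 0.64, -0.71 and 0.36 for YNL034W (the same, with rad6Δ tagged before rad6Δ untagged), and 0.16 and 0.28 for PRY1 (rad6-R6A,M10A, rad6-R6Q). On sense they were -0.42, 0.00 and 0.04 for NDT80 (H2B-K123R, rad6-R6Q, rad6Δ tagged), and -0.16 for PRR2 and 0.12 for GIC1 for rad6Δ untagged, and on balance 0.00 for GIC1 for rtf1-108-110AAA.

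With K. lactis scaling, antisense calls were 37 and 57 for rad6Δ tagged, 19 and 56 for rtf1-108-110AAA and 21 and 40 for rad6-R6A,M10A, with 27 lower in rad6Δ untagged, 52 lower in rad6-R6Q and 18 higher in WT tagged against WT untagged. H2B-K123R against rad6Δ untagged had 10 and 11, and rad6-R6Q against rad6Δ tagged 9 and 14. Sense calls were 100 and 3 for rad6Δ tagged, and sense falls 6 for rad6Δ untagged, 0 for H2B-K123R, 3 for rtf1-108-110AAA, 5 for rad6-R6Q and 1 for rad6-R6A,M10A. Without the filter, rad6-R6A,M10A had 7 higher on antisense, 3 lower against rad6Δ tagged, and 4 balance shifts toward antisense. With DESeq2 these last were 3, rad6-R6A,M10A had 11 lower against rad6Δ tagged, and 1 gene was higher in rad6Δ tagged than in rad6Δ untagged. With genes chosen on the other wild type, 6 fell on sense in H2B-K123R.

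Leaving out 1 library in turn gave 19 to 31 antisense falls in H2B-K123R, and 9 to 12 rises in rad6-R6Q and 5 to 10 for rad6-R6A,M10A. WT tagged against WT untagged gave 12 to 22 rises and 0 to 2 falls, and H2B-K123R against rad6Δ untagged 10 to 19 and 2 to 4. Against rad6Δ tagged there were 5 to 15 falls in rtf1-108-110AAA, 8 to 12 rises and 5 to 8 falls in rad6-R6Q, and 6 to 8 and 2 to 6 for rad6-R6A,M10A. Sense falls were 4 to 7 for rad6Δ tagged, 9 to 15 for rad6Δ untagged, 0 to 3 for H2B-K123R, 4 to 8 for rtf1-108-110AAA, 6 to 16 for rad6-R6Q and 3 to 6 for rad6-R6A,M10A. Balance shifts toward antisense were 9 to 15 for rad6Δ untagged, 8 to 14 for H2B-K123R, 3 to 8 for rtf1-108-110AAA and 2 to 5 for rad6-R6A,M10A.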
